A study of Mus musculus with 36 samples.

Results

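The 10 genes of the amino acid stress response followed here, in fetal mouse gonads with and without the miR-17~92 microRNA cluster, were Asns, Atf4, Atf5, Ddit3, Trib3, Chac1, Psat1, Phgdh, Shmt2 and Sesn2. They are 10 of the 21667 genes in each of the 2 count tables, and 9 of them reached the level needed for testing at each stage (1 CPM, a count scaled by library size, or more in 2 or more of the 12 libraries). Chac1 did not. The set was put together after Asns had shown, at E11.5 (embryonic day), a different change on loss of the cluster in XX and in XY gonads. The E11.5 values of these genes are therefore given as a description only. Tests are given for E12.5, whose values the selection rule did not use, although earlier results of these data were known.

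The 4 genotypes were compared at 2 stages, with 3 libraries in each of the 8 groups. Control gonads were XX or XY and are labelled WT, and whether they carried the floxed allele or the Cre transgene is not given in the sources used here. KO gonads (labelled MiRC1 Mutant) were XX or XY as well, and came from embryos homozygous for the deleted allele (miR-17~92 del/del) that carried the transgene Tg(CAG-cre)1Nagy. The floxed cluster, on a mixed C57BL/6 and 129S4/SvJae background, was deleted by its Cre, which is under the broadly active CAG promoter, so the loss was not restricted to one cell type. RNA came from gonads with the adjoining mesonephros at E11.5 and from gonads alone at E12.5, and each library pooled gonads. Library kits also differed between stages, so stages and kits cannot be told apart and no test was made between stages. The labels do not name separate litters, and p-values measure the spread between these libraries.

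Total counts lay between 11865089 and 44102891 per library. All XX libraries held at least 26234 Xist counts and at most 8 Ddx3y counts, whereas all XY libraries held at most 106 and at least 1680, as labelled. Counts for Mir17hg, the host gene of the cluster, were higher in all KO libraries (68.5 to 152 CPM) than in all control libraries (12.9 to 46.0 CPM), but a count over the whole gene cannot show the loss of a segment within it. Markers of gonadal somatic cells (Wt1, Nr5a1, Gata4, Lhx9 and Emx2) were present throughout, at a summed level of 883 to 1959 CPM. Summed Sertoli cell markers (Sox9, Amh, Dhh, Aard and Fgf9) at E12.5 were 1246 to 1758 CPM in XY control libraries and at most 54.8 CPM in every other library. In such bulk tissue, fewer cells of a type and less RNA per cell cannot be told apart.

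When amino acids run short or unfolded proteins accumulate, kinases phosphorylate the translation factor eIF2alpha. General protein synthesis then slows while the mRNA of the transcription factor ATF4 is translated more, so much of ATF4 control is not seen in the amount of Atf4 mRNA. ATF4, with partners such as the CHOP protein encoded by Ddit3, binds composite C/EBP-ATF elements and raises genes for amino acid synthesis, transport and tRNA charging. In the fetal gonad, supporting cells become Sertoli cells in XY and pre-granulosa cells in XX embryos within the days sampled here.

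To show which of the 10 genes carry such an element near their start, the letters TGATGNAA were searched on both strands in RefSeq promoter windows (GRCm38.p6), which run from 250 bases before to 50 bases after the start. All 10 genes had a window, and 3 held a match, against 4.51% of all 27025 genes with a window. The matches are shown in capitals, 5′ to 3′ on the strand of the gene, and those of Trib3 and Chac1 read in the opposite direction.
Asns: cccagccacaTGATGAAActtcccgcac
Trib3: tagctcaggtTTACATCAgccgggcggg
Chac1: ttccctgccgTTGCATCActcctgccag
Positions count from the RefSeq start site, which differs from the outer gene end in the GENCODE annotation that the gene coordinates below follow. The Asns window lies at chr6:7693215-7693242 on the minus strand, and the first base of its match is at -23, upstream of the start at 7693209. The Trib3 window lies at chr2:152344029-152344056 on the minus strand, and its match begins at 14, downstream of the start at 152344060. The Chac1 window lies at chr2:119351039-119351066 on the plus strand, and its match begins at -193, upstream of the start at 119351242. A match in letters is a description and says nothing of binding in these cells.

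The deleted cluster encodes microRNAs of 4 seed families. Matches to those seeds were searched in the longest annotated 3′ UTR of each gene (GENCODE M21). Whether microRNAs with the same seeds from other loci remained in KO gonads was not tested. Of the 10 genes 2 held one, Sesn2 for the miR-17 family and Shmt2 for the miR-19 family, whereas 29.4% of all 17971 genes with a 3′ UTR held a match to at least 1 of the families. Median 3′ UTR length was 628 bases in the 10 genes and 979 bases in all genes. Each target stretch is printed below a microRNA of its family (from RefSeq), with the seed (bases 2 to 8) and the letters that pair with it in capitals.
miR-17-5p: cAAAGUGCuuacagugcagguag
Sesn2: accaccgacaaGCACTTTgcagagcaaac
miR-19b-3p: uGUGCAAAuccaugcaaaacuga
Shmt2: ggggttataggTTTGCACcatgacacccg
The 3′ UTRs of Asns (146 bases) and Atf4 (81 bases) are short and held no match to any of the 4 seeds.

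Asns (chr6:7675169-7693254, minus strand, mm10) encodes asparagine synthetase, which makes asparagine from aspartate and glutamine and is a widely used readout of ATF4. At E11.5 it stood apart in XX controls. Its level, as CPM with TMM-scaled library sizes, was 125, 100.1 and 116 in the XX control libraries. It was 55.5, 45.4 and 49.99 in XX KO, 55.0, 57.0 and 52.5 in XY control, and 63.6, 56.5 and 48.2 in XY KO libraries. The lowest XX control library thus exceeded all 9 libraries of the other genotypes, which overlapped each other. On average XX controls had 114 ± 12.6 CPM (SD, n = 3), 2.07-fold the level of XY controls (54.8 ± 2.25) and 2.26-fold that of XX KO gonads (50.3 ± 5.08), and XY KO gonads (56.1 ± 7.69) stood 0.04 log2 units from XY controls. The difference between the effects in XX and XY, -1.21 on the log2 scale, is the value the set was chosen on.

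**Figure D1:**
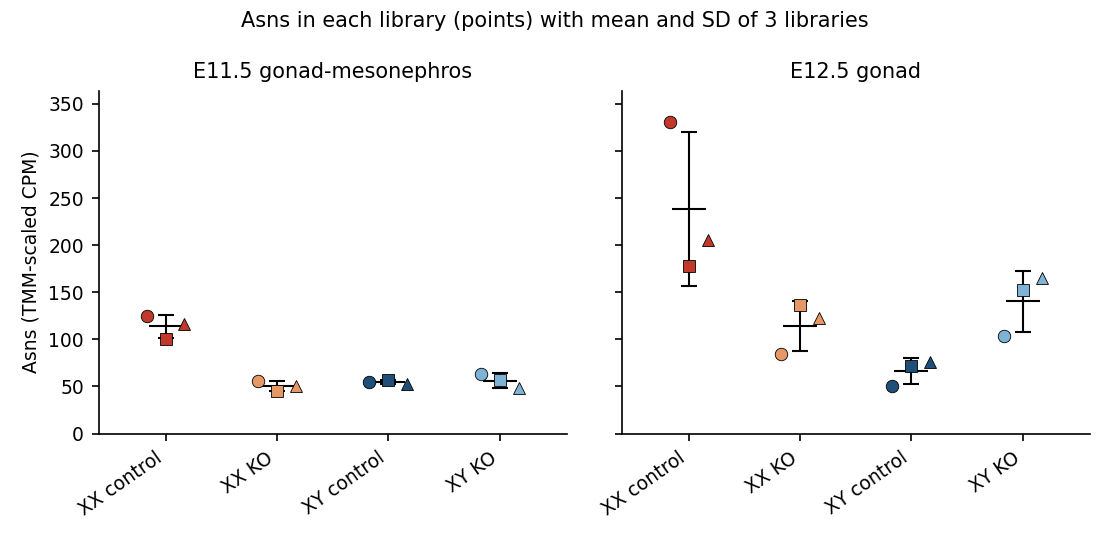
Asns level (y axis, TMM-scaled CPM, linear from 0) in each library by genotype (x axis) at E11.5, left, and E12.5, right; points are libraries, horizontal bars means and whiskers SD of 3 libraries. At E11.5 the XX control libraries (100.1 to 125) lie above all others, and at E12.5 XY control libraries (50.4 to 76.2) lie below all others.

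At E12.5 Asns was again highest in XX controls, and XY controls now lay below both KO groups. The XX control libraries had 331, 178 and 205 CPM, and XY control libraries 50.4, 71.5 and 76.2 CPM. KO libraries took levels between those of the controls: 84.8, 136 and 123 CPM in XX KO, and 104, 152 and 165 CPM in XY KO. The lowest XX control library was above the highest KO library, and the lowest KO library was above the highest XY control. The KO groups overlapped each other.

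These E12.5 differences passed the test across all genes (edgeR quasi-likelihood test, Benjamini-Hochberg adjusted p, FDR, under 0.05). Asns was 3.61-fold higher in XX than XY controls (log2 fold change 1.85, SE 0.26, FDR 9.12e-05). It rose 2.13-fold in XY KO relative to XY control gonads (1.09, SE 0.25, FDR 0.00644) and fell 2.07-fold in XX KO relative to XX control gonads (-1.05, SE 0.25, FDR 0.0308). The difference of the effect between XX and XY was -2.15 (SE 0.36, FDR 0.000924). XX KO and XY KO gonads differed by -0.29 (SE 0.25, FDR 0.498). By the exact permutation test on 1 gene, two-sided, each of the 3 separated comparisons gave p = 0.1, which is the smallest that 3 against 3 libraries allow.

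The decrease in XX KO gonads at E12.5 was the least secure of these calls. It was lost when only the XX groups were fitted (-1.06, FDR 0.0602) and without XX control replicate 1 (-0.74, FDR 0.124), XX control replicate 2 (-1.22, FDR 0.0556), XX KO replicate 1 (-0.88, FDR 0.0771) or XX KO replicate 3 (-1.11, FDR 0.110).

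Other tissue markers also differed between the groups. Of 8 marker lists, 3 did not overlap in their summed level between E12.5 XX KO and XX control libraries. In XX KO libraries, 7 mesonephric tubule and duct markers summed to 54.6 to 143 CPM, against 34.0 to 40.1 CPM in XX controls, and 10 immediate early and heat shock genes of tissue handling to 158 to 218 against 97.3 to 128 CPM. The third list was that of erythroid markers, at 860.1 to 1578 CPM in XX KO and 1599 to 2702 CPM in XX control libraries. Germ cell markers overlapped (298 to 711 against 696 to 1388 CPM). Between XY KO and XY control libraries 5 of the 8 did not overlap. Besides the Sertoli cell markers, germ cell markers (584 to 741 against 762 to 1072 CPM) and erythroid markers (1219 to 1517 against 1518 to 2438 CPM) were lower in KO libraries. Endothelial markers (669 to 747 against 484 to 635 CPM) and gonadal somatic cell markers (1723 to 1804 against 1350 to 1554 CPM) were higher. Among the lists that overlapped in XY, mesonephric markers summed to 31.2 to 104 CPM in KO and 28.2 to 35.4 CPM in control libraries. Handling genes summed to 77.3 to 180 against 174 to 250 CPM. Gene by gene, 5 of the 7 mesonephric markers were called higher and 1 lower in XY KO gonads (median log2 fold change 2.01), beside 10.3% of all genes in each direction. In XX KO gonads 4 were called higher and 0 lower (median 1.53), beside 3.43% and 1.84%. Beside the same shares in XY, 3 of 5 gonadal somatic cell markers were called higher and 1 lower, and 2 of 5 endothelial markers higher and 0 lower. Of 5 germ cell markers 2 were called lower and 0 higher in XY. Of 5 erythroid markers tested 0 were called there, with 2 above 0. In the XX comparison all 5 germ cell markers were below 0 (median -0.755), with 1 called lower. Erythroid markers again gave 0 calls, with 1 of 5 above 0. Between the controls 4 lists did not overlap, with gonadal somatic cell and macrophage markers higher in XX and Sertoli cell markers and handling genes higher in XY. At E11.5, 2 of the 8 lists did not overlap in the XX comparison. There 5 macrophage markers summed to 39.0 to 52.5 CPM in XX KO and 72.6 to 82.2 CPM in XX control libraries, and mesonephric markers to 226 to 270 against 281 to 300 CPM. In the E11.5 XY comparison 4 lists did not overlap, all lower in KO libraries. These were Sertoli cell, gonadal somatic cell and macrophage markers (macrophage 40.1 to 59.9 against 65.7 to 92.9 CPM) and handling genes. Of all single genes tested at E11.5, 24.7% did not overlap in XX and 28.3% in XY. The part of these cells and of handling in the Asns values was not tested.

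Counted over the 9 tested genes, the share called at E12.5 was near that in the table as a whole. Of the 9, 2 were called in XY KO against XY control gonads (Asns and Sesn2), beside 20.6% of all 14327 genes tested. In the XX comparison 1 of 9 was called (Asns), beside 5.27% of all genes. Between the controls 2 of 9 were called (Asns and Phgdh), beside 23.8%, and in the difference of the effects 1 of 9 (Asns), beside 12.9%. Between XX KO and XY KO gonads edgeR called 0 of 9 (0.154% of all genes), as did DESeq2. There 1 of 9 had an unadjusted edgeR p under 0.05, beside 2750 of all 14327 genes. Without XY control replicate 3 the XY comparison gave 4 calls (Phgdh and Shmt2 in addition), and without XX KO replicate 2 the difference of the effects gave 4 (Atf4, Phgdh and Shmt2 in addition). The shares of all genes above come from the full fit, and those with a library left out are not given. Nothing particular to the set is therefore read from the added calls. Libraries did not overlap for 3 of 9 genes in the XY comparison (39.1% of all genes), for 3 of 9 in the XX comparison (23.4%) and for 3 of 9 between controls (36.6%).

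At E11.5 the same counts repeat how the set was selected, and nothing is read from them. Only Asns was called in XX KO against XX control gonads (3.35% of all 14198 genes), between controls (0.873%) and in the difference of the effects (0.0423%). In XY KO against XY control gonads edgeR and DESeq2 called 0 of 9 (12.6% of all genes by edgeR). Between XX KO and XY KO gonads they also called 0 of 9 (0.0845%). In each of these comparisons 1 of 9 had an unadjusted edgeR p under 0.05, beside 4086 and 2297 of all 14198 genes. Apart from Asns, the 8 other tested genes lay between -0.30 and 0.44 log2 units in the XX comparison and between -0.42 and 0.22 in the XY comparison.

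**Figure D2:**
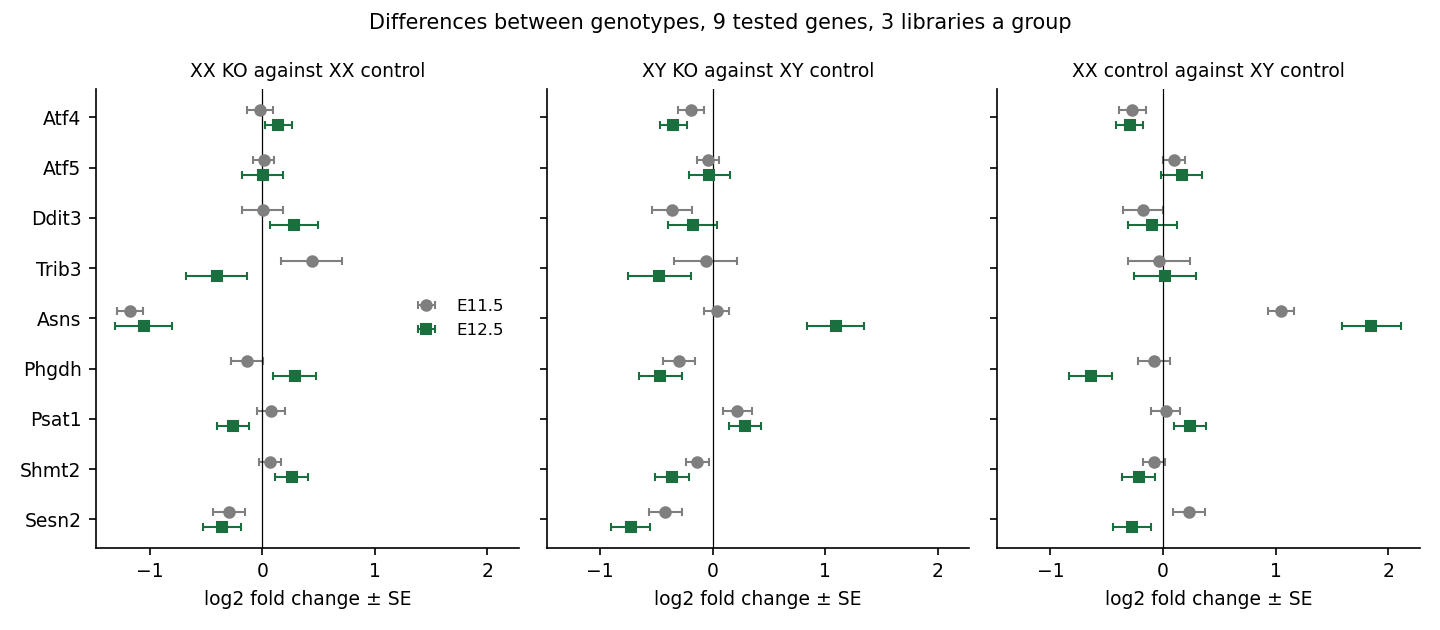
Log2 fold change (x axis, with SE) of the 9 tested genes (y axis) for 3 comparisons; circles are E11.5 and squares E12.5, each from 3 libraries a group. Asns is the gene farthest from 0 in the XX comparison and between controls at both stages, and at E12.5 Sesn2 is the gene farthest below 0 in the XY comparison (-0.73).

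Atf4 (chr15:80255184-80257541) encodes the central factor of the response. Per kilobase of exon it was the most abundant of the 10 genes at E11.5 (39.98 to 59.3 CPM per kb over the 12 libraries). At E12.5 it was second to Asns by mean (39.2 to 55.3 against 18.4 to 121 CPM per kb), and the ranges of both overlapped. Its E12.5 level was 102, 93.3 and 117 CPM in XX control, 119, 103 and 122 in XX KO, 129, 130 and 124 in XY control and 92.5, 96.8 and 111 in XY KO libraries. XY control libraries were above all XX control and all XY KO libraries, and the direction is opposite to that of Asns in both comparisons. The XY difference (-0.35, SE 0.12) missed the threshold at FDR 0.0523, as did that between controls (-0.30, SE 0.12, FDR 0.0910), and DESeq2 called the former (FDR 0.0225). At E11.5 Atf4 had 98.1 to 119 CPM in XX control, 94.3 to 127 in XX KO, 115 to 140 in XY control and 106 to 120 in XY KO libraries.

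Atf5 (chr7:44812256-44816658) encodes a related factor that is also under translational control and acts in mitochondrial stress. Its group means were close, at 31.1 to 34.5 CPM at E11.5 and 24.7 to 28.4 CPM at E12.5. Its E12.5 libraries ran from 19.4 to 33.9 CPM, and every pair of E12.5 groups overlapped. None of its E12.5 differences between genotypes passed the test (lowest FDR over the comparisons 0.524, for XX KO against XY KO gonads).

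Of the ATF4 outputs tied to prolonged stress, Trib3 and Chac1 were the least abundant of the 10 genes at both stages, per kilobase. By the same measure Ddit3 stood in place 7 of 10 at E11.5 and in place 8 at E12.5. Ddit3 (chr10:127290774-127296288), which encodes CHOP, had 9.15 to 15.1 CPM at E11.5 and group means of 7.50 to 9.70 CPM at E12.5. It is listed under 2 overlapping gene models with identical counts, of which 1 was kept. Trib3 (chr2:152337422-152344032), a pseudokinase that restrains ATF4 and CHOP, had 1.49 to 4.49 CPM at E11.5 and 4.51 to 9.20 CPM at E12.5. Its E12.5 libraries spread widely within groups, for instance 4.54, 9.04 and 8.64 CPM in XX controls and 9.20, 7.42 and 5.05 CPM in XY controls. Neither gene passed the test in any E12.5 comparison. Chac1 (chr2:119351229-119354381), which encodes a glutathione-degrading enzyme, had 1 to 14 counts per library at E11.5 and 1 to 13 at E12.5 (at most 0.813 CPM), and differences between genotypes were not detectable at this depth.

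**Figure D3:**
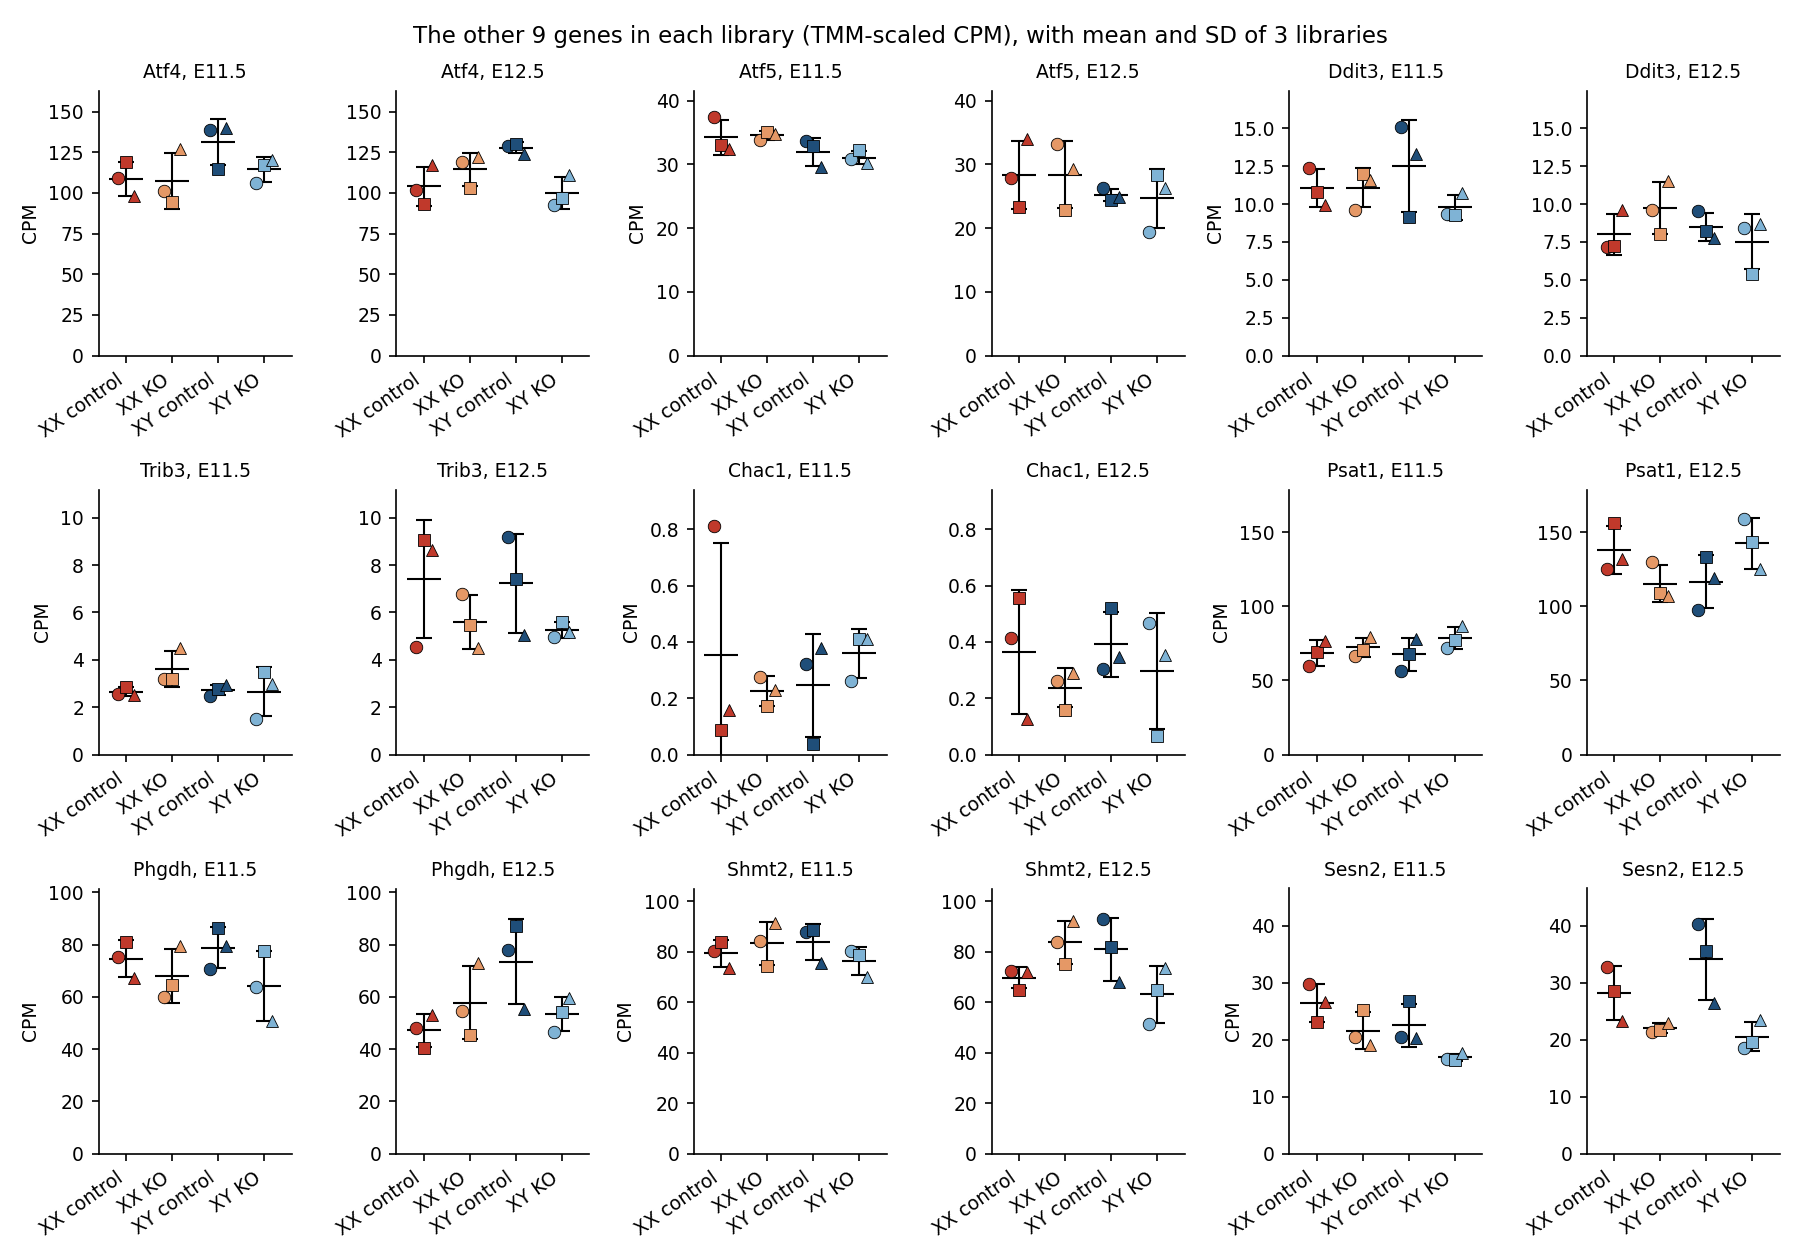
Level (y axis, TMM-scaled CPM, linear from 0) of the other 9 genes in each library by genotype (x axis), with E11.5 and E12.5 side by side on a common scale; points are libraries, horizontal bars means and whiskers SD of 3 libraries. Chac1 stays under 1 CPM, and in none of these genes do all XX control libraries lie above all others.

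Serine synthesis and its link to folate metabolism run from Phgdh, the first enzyme, through Psat1, the aminotransferase, to Shmt2, the mitochondrial enzyme that splits serine into glycine and a one-carbon unit. Phgdh (chr3:98313170-98339990) had 48.1, 40.6 and 53.1 CPM in E12.5 XX control libraries and 78.1, 87.0 and 55.3 CPM in XY control libraries. All XX controls were below all XY controls, and the fall of 0.64 log2 units (SE 0.19, FDR 0.0253) passed the test. That call was lost without XX control replicate 1 (FDR 0.0604) or 2 (0.106) and without XY control replicate 1 (0.0778) or 2 (0.121). XX KO libraries had 54.5, 45.6 and 73.0 CPM and XY KO libraries 46.6, 54.1 and 59.4 CPM, between or overlapping the controls, and neither KO effect passed the test (log2 fold change 0.29, FDR 0.377, and -0.46, FDR 0.110).

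Psat1 (chr19:15904678-15947337) had 125, 156 and 132 CPM in XX control, 130, 109 and 107 in XX KO, 97.6, 133 and 119 in XY control and 159, 143 and 125 in XY KO libraries at E12.5. Its group means followed the signs of Asns, with -0.26 in the XX comparison, 0.29 in the XY comparison and 0.24 between controls, but all pairs of groups overlapped and none passed the test (FDR 0.190 to 0.296 for these comparisons). Shmt2 (chr10:127517123-127522444) had the opposite signs. It had 72.4, 65.0 and 72.1 CPM in XX control and 83.9, 75.2 and 92.2 CPM in XX KO libraries, which did not overlap (0.26, SE 0.15, FDR 0.301). In XY it had 92.9, 82.1 and 68.0 CPM in control and 51.3, 64.7 and 73.5 CPM in KO libraries, which overlapped (-0.36, SE 0.15, FDR 0.110). At E11.5 the group means of Phgdh, Psat1 and Shmt2 were 64.0 to 78.8, 67.5 to 78.7 and 76.4 to 83.9 CPM.

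Sesn2 (chr4:132492032-132510501) encodes a leucine-sensing inhibitor of mTORC1 and is a target of both ATF4 and p53. It was lower in KO than in control gonads of both sexes at E12.5 without overlap, and passed the test in XY. XY control libraries had 40.3, 35.5 and 26.4 CPM and XY KO libraries 18.6, 19.5 and 23.5 CPM, a fall of 0.73 log2 units (SE 0.17, FDR 0.00685). XX control libraries had 32.8, 28.5 and 23.3 CPM and XX KO libraries 21.3, 21.7 and 23.0 CPM (-0.36, SE 0.17, FDR 0.213). The effects in XX and XY differed by 0.37 (SE 0.24, FDR 0.358), so a difference between them was not shown. At E11.5, XY KO libraries (16.4 to 17.6 CPM) were below all XY controls (20.2 to 26.8 CPM), while XX KO (19.0 to 25.2 CPM) and XX control libraries (23.1 to 29.7 CPM) overlapped.

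To ask whether the rest of the pathway moved with these genes, 9 lists of further genes were described, covering the eIF2 branch, ATF4 partners, amino acid enzymes, transporters, tRNA synthetases, ATF4 and CHOP outputs, other arms of the unfolded protein response, p53 targets and mitochondrial chaperones, plus the other sestrins. Of these non-members, 102 were tested at E12.5 and 100 at E11.5. In E12.5 XY KO relative to XY control gonads, 6 rose and 19 fell, beside 10.3% of all genes rising and 10.3% falling, and the median log2 fold change was -0.16 beside -0.01 over all genes. In XX, 2 rose and 1 fell, beside 3.43% and 1.84% of all genes, with a median of -0.03. The XY count of 25 dropped to 14 without XY control replicate 2, XY KO replicate 1 or XY KO replicate 2, and the XX count of 3 ranged from 0 (without XX control replicate 1 or 2, or XX KO replicate 3) to 9 (without XX KO replicate 2).

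Of 10 amino acid transporters tested, 2 fell and 0 rose in E12.5 XY KO gonads, and of 9 other ATF4 and CHOP outputs 2 fell and 2 rose, beside the 10.3% of all genes in each direction. Slc7a5, the light chain of a leucine transporter, fell by 1.06 log2 units (SE 0.13, FDR 4.82e-05), from 199 ± 17.4 to 95.9 ± 11 CPM (SD, n = 3), and stood at 117 ± 18.8 and 94.1 ± 2.07 CPM in XX control and XX KO gonads. Its heavy chain partner Slc3a2 fell by 0.47 (SE 0.13, FDR 0.0188). Stc2, which encodes a secreted glycoprotein, fell by 1.82 (SE 0.34, FDR 0.00139), from 36.4 ± 11.6 to 10.3 ± 3.39 CPM, near the XX levels of 7.07 ± 3.23 and 8.09 ± 2.40 CPM. The stress cytokine gene Gdf15 fell by 1.99 (SE 0.52, FDR 0.0136). The 2 outputs that rose were the cell cycle inhibitor gene Cdkn1a (1.68, SE 0.18, FDR 7.66e-06) and the death receptor gene Tnfrsf10b (0.52, SE 0.13, FDR 0.0076). Within the tRNA synthetases 2 of 18 fell and 0 rose, a share near the 10.3% of all genes that fell, Aars by 0.38 (SE 0.12) and Tars by 0.34 (SE 0.11).

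**Figure D4:**
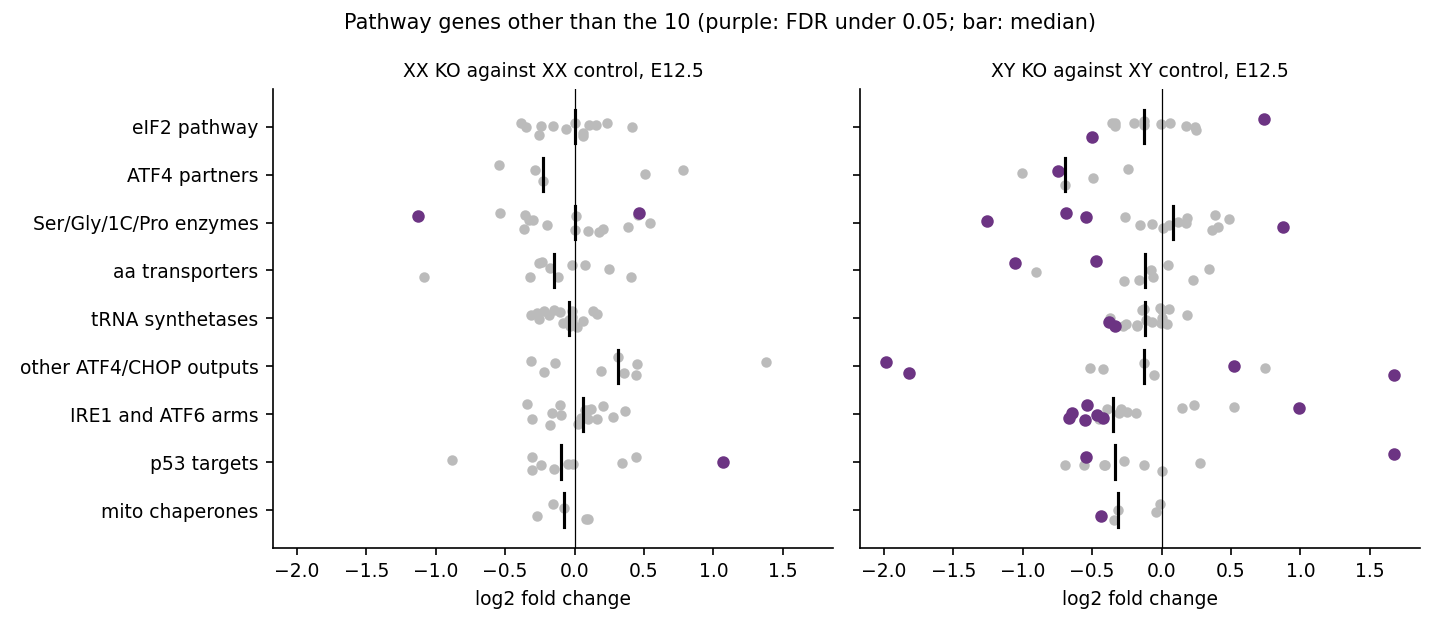
Log2 fold change (x axis) at E12.5 of pathway genes other than the 10, by list (y axis), in the XX comparison, left, and the XY comparison, right; each point is a gene, purple points have an FDR under 0.05, black bars are list medians, and vertical scatter is only for visibility. Most purple points in the XY comparison lie below 0, and 3 distinct genes are purple in the XX comparison.

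Enzymes of amino acid metabolism moved in both directions at E12.5. Of 16, 1 rose and 3 fell in the XY comparison, against 10.3% of all genes in each direction. Cth, which makes cysteine from cystathionine, rose by 0.87 (SE 0.17, FDR 0.00202). In XX KO gonads Gldc, the decarboxylase of the glycine cleavage system, fell by 1.12 (SE 0.25, FDR 0.0221) and Aldh18a1, the first enzyme of proline synthesis, rose by 0.46 (SE 0.12, FDR 0.0357). In group means, Cth and Gldc shared with Asns a highest level in XX controls and a lowest in XY controls. Gldc was not called in the XY comparison, and Cth was not called in the XX comparison. For Cth the means were 15.5 ± 2.43 CPM in XX control, 10.7 ± 0.947 in XX KO, 10.05 ± 0.252 in XY KO and 5.47 ± 0.696 in XY control gonads. For Gldc they were 142 ± 45.0, 65.1 ± 16.9, 67.4 ± 12.2 and 50.8 ± 10.1 CPM in the same order.

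The counts that follow for E12.5 XY KO gonads stand beside the same 10.3% in each direction, and with so few genes in a list most amount to 1 or 2 genes. Within the eIF2 branch 1 of 13 genes rose in XY KO gonads at E12.5, the interferon-induced kinase Eif2ak2 (0.74, SE 0.14, FDR 0.00165), and 1 fell, Ppp1r15a, a subunit of the eIF2alpha phosphatase (-0.50, SE 0.17, FDR 0.0493). Of the ATF4 partners 1 of 5 fell, Jdp2 (-0.75, SE 0.23, FDR 0.0305). In the IRE1 and ATF6 arms, 6 of 16 fell, among them Sdf2l1 (-0.66, SE 0.21, FDR 0.0377), and 1 rose, the sensor kinase Ern1 (0.99, SE 0.23, FDR 0.00699). Of the p53 targets, which include Sesn2, 2 of 11 fell, with Bax at -0.55 (SE 0.13, FDR 0.00903). Cdkn1a, also a p53 target, was the 1 that rose, and in XX KO gonads Phlda3 rose by 1.07 (SE 0.24, FDR 0.0258). Of the mitochondrial chaperones and proteases, Lonp1 fell by 0.43 (SE 0.13, FDR 0.0234), and Sesn3 rose by 0.71 (SE 0.23, FDR 0.0442). The 5 Sertoli cell markers all fell in this comparison, with a median log2 fold change of -4.10, and their part in the pathway changes was not tested.

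At E11.5 the pathway lists showed 9 genes up and 4 down in XY KO gonads, beside 5.86% and 6.78% of all genes, and 2 up and 1 down in XX KO gonads, beside 1.93% and 1.42%. The XY count of 13 fell to 4 without XY KO replicate 1 or 2, to 6 without XY control replicate 1 and to 7 without XY control replicate 3. Of the 16 genes in the IRE1 and ATF6 arms 5 rose in XY KO gonads, led by the chaperone genes Dnajb9 (0.72, SE 0.12, FDR 0.00131) and Hsp90b1 (0.45, SE 0.10, FDR 0.0129). Hspd1 (0.34, SE 0.10) and the synthetase Dars (0.34, SE 0.09) also rose. Stc2 fell in XY (-1.25, SE 0.14, FDR 8.35e-05) and XX KO gonads (-0.74, SE 0.14, FDR 0.0107), and Aldh18a1 rose in both (0.33, SE 0.10, FDR 0.0413, and 0.40, SE 0.10, FDR 0.0385). Cebpb (-1.15, SE 0.28), Ddit4 (-0.55, SE 0.13) and Slc7a5 (-0.48, SE 0.13) fell in XY, and the lipoprotein receptor gene Vldlr rose in XX (0.74, SE 0.12, FDR 0.00424). In the difference of the effects between XX and XY edgeR and DESeq2 called 0 of 100, beside 0.0423% of all genes by edgeR. An unadjusted edgeR p under 0.05 was found for 10 of the 100, beside 1823 of all 14198 genes.

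To find which genes followed Asns most closely, each gene tested was compared with it by the root mean square difference of log2 CPM around each gene's own stage mean over the 12 libraries, a measure that is 0 for identical profiles. At E11.5 the nearest was Kitl, which encodes the ligand of the KIT receptor (0.253, where Asns itself varied by 0.487 around its mean). Kitl had 291 ± 49.7 CPM in XX controls against 173 ± 28.9 in XX KO, 178 ± 8.25 in XY control and 152 ± 1.82 in XY KO gonads. Prkcq, Gk5 and Ankrd35 followed (0.264 to 0.272). Their group means ran from 2.12 to 4.13, from 17.1 to 38.6 and from 1.37 to 2.4 CPM. Prkcq and Ankrd35 thus lay near the 1 CPM needed for testing. Of these 4, Kitl stayed among the 5 nearest in 10 of 12 repeats that left out a library and the others in 4 to 6, and none remained without XX control replicate 1. At E12.5 the nearest were Aox4, an aldehyde oxidase gene (0.270, Asns 0.721), Svopl (0.281), Slc25a34, Actr6 and Gfra3 (0.317 to 0.325), of which Aox4 and Svopl stayed in 11 of 12 repeats and the other 3 in 3 to 6.

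The other genes of the set were not near Asns by this measure. At E11.5 Sesn2 ranked highest, in place 384 of 14197, and Atf4 stood in place 8827. At E12.5 Psat1 ranked highest, in place 2673 of 14326, and Atf4 stood in place 10035. All these profiles share the same 12 libraries of a stage, and the ranks are a description.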

How the data were processed

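Bulk RNA-seq of gonads was analysed for 4 genotypes at 2 stages. According to the study's methods, read pairs were mapped to mm10 and counted per gene by Subread and featureCounts. The authors deposited raw counts, in 1 table per stage, with no normalization. The gene annotation, strand setting and handling of multiply mapped reads are not given in the sources used here, so counts of overlapping genes are uncertain. Deposited tables of Foxl2 mutants hold 12 further columns of per-sample values, which were not used because their names do not give the tissue.

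The 10 genes, the pathway and marker lists and the tests were chosen with earlier results of these data known. Of 21699 rows, 32 that repeat the symbol and counts of another row (including Ddit3) were dropped. Genes with at least 1 CPM in at least 2 of 12 libraries were tested (14198 at E11.5, 14327 at E12.5). Each stage had its own model, with 1 mean for each genotype, in edgeR 4.0.16 (R 4.3.3) with TMM scaling and the robust quasi-likelihood fit; calls used an FDR under 0.05 over all genes tested. SE was taken as the absolute log2 fold change over the root of the F statistic. The fit was tested on simulated counts with 200 genes changed 2-fold in XX KO libraries. In XX KO against XX control it recovered 82.5% of them at E11.5 and 63% at E12.5. Of its calls 7.3% and 6.7% were false. Smaller changes were not simulated. Levels are TMM-scaled CPM, mean ± SD of 3 libraries, and per-kilobase levels use GENCODE M21 exon length. Genes named are the 10, list genes called in the difference of the effects, the 2 called genes of each list with the largest change in each KO comparison, and the 5 nearest to Asns; some that this rule gave are not reported here. Cdkn1a, Sesn1, Sesn2 and Atf3 stand in more than 1 list; 5 symbols not found in the tables were not analysed here. Alternatives were DESeq2 1.42.0, other scalings and filters, fits of 2 groups, a replicate block and leaving out each library. The SD and SE include counting error.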

Additional observations from a re-analysis of the deposited data

Results flagged for a closer look

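The effect of losing the cluster on Asns differed between XX and XY gonads by -1.21 on the log2 scale at E11.5, the value by which the set was chosen. At E12.5, whose values the selection rule did not use, it differed by -2.15. Earlier results of these data were known when the set was chosen. At E12.5 all XX KO libraries were below all XX controls, and all XY KO libraries were above all XY controls.

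Among the other pathway genes, edgeR called a difference of the effect between XX and XY at E12.5 for 18 of 102 genes, beside 12.9% of all genes tested. In the following, values above 0 are more positive in XX than in XY. Of 16 genes in the IRE1 and ATF6 arms, 5 were called above 0 (Calr by 0.81, Creld2 by 0.76, Hspa5 by 0.67, Dnajb11 by 0.62 and Hsp90b1 by 0.60) and 1 below 0 (Ern1), and 4 of the 16 had values below 0. Of the others named here, those above 0 were Stc2 (2.01), Phlda3 (1.47), Jdp2 (1.25), Ppp1r15a (0.92) and Slc7a5 (0.73). Those below 0 were Gldc (-1.53), Cth (-1.41), Ern1 (-1.30), Cdkn1a (-1.23), Sesn3 (-1.21), Eif2ak2 (-1.12) and Tnfrsf10b (-0.84). The Sertoli cell markers differed by a median of 3.52 in the same comparison, and their part in these values was not tested.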

How the results depend on the processing

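At E12.5 the Asns calls between controls, in XY KO gonads and in the difference of the effects, and the Sesn2 call in XY KO gonads, held under every alternative run. The calls of Asns in XX and of Phgdh between controls did not (values above). Atf4 in XY KO gonads at E12.5 gained a call with DESeq2 size factors (FDR 0.0478), DESeq2 (0.0225), filterByExpr (0.0445) and the XY groups alone (0.0430). The E11.5 XY value of Asns, near 0, reversed with library size alone (-0.00355) and without XY KO replicate 1, and ranged from -0.0642 to 0.132 when 1 library was left out.

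In number of the 9 genes called at E12.5, the XX comparison gave 0 when only its groups were fitted, and the difference of the effects gave 3 with DESeq2 (Asns, Atf4 and Shmt2). Leaving out 1 library gave 2 to 4 genes in the XY comparison, 0 to 1 in the XX comparison, 1 to 3 between controls and 1 to 4 in the difference of the effects. At E11.5 it gave 0 to 1, 1 to 1, 1 to 2 and 0 to 1. For other pathway genes at E12.5, DESeq2 called 6 in the XX comparison and the XX groups alone gave 1, while leaving out 1 library gave 14 to 28 (XY), 0 to 9 (XX) and 11 to 24 (difference). At E11.5 the XY groups alone gave 4 and DESeq2 gave 5 in XX, and leaving out 1 library gave 4 to 17 (XY) and 1 to 4 (XX). The shares of all genes called under these settings are not given here, and the cause was not tested.

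Replicate numbers are shared by the groups, and the labels do not say whether they pair libraries. Correlations of same-numbered libraries of different groups ran from -0.20 to 0.35 at E11.5 and from -0.38 to 0.29 at E12.5. Those of other-numbered libraries ran from -0.27 to 0.34 and from -0.37 to 0.37. At the 2 stages, 5 and 4 of 12 libraries were most like one of their own number. With 3 libraries a group these values cannot exclude a shared litter or batch. With a replicate block the E12.5 counts of called genes of the set stayed at 2, 1, 2, 0 and 1, and the pathway counts were 23 (XY), 2 (XX) and 14 (difference). Of 78 further differences among the set, 18 changed sign under at least 1 alternative, 0 of them past the threshold, and 8 changed call. Of 144 group means under other scalings, 2 moved by more than 1 SD. Keeping repeated rows, an alternative chosen after seeing the data, changed no call of the set. Precision is limited by 3 libraries a group and, for Chac1, by depth.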
